A study of Mus musculus with 4 samples.

Results

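The Kruppel-like factor (Klf) genes described here are 10 mouse genes, Klf2, Klf3, Klf4, Klf6, Klf7, Klf9, Klf10, Klf11, Klf12 and Klf13, out of 37140 genes that all 4 count tables list. They were chosen by name from this gene family, without Klf1, and with their levels and KO/WT ratios in these same libraries already known. Those levels and ratios are therefore given as a description, with no test. All 10 were found in the tables by their Ensembl identifiers, and all 10 passed the filter on low counts in both populations. RNA was measured by sequencing in hematopoietic stem cells (HSCs) sorted from the bone marrow of C57Bl6 mice, with 1 library for each of 4 groups. CD150+ CD48- Lin- Sca1+ cKit+ cells, called HSCs here, and HSCs with low surface CD41 and CD9 (CD41low/CD9low HSCs) were each taken from Gfi1b WT and Gfi1b KO mice. The mice labelled KO were homozygous for floxed Gfi1b and carried a tamoxifen-inducible Cre at the ubiquitously active Rosa26 locus. The controls labelled WT carried 1 floxed allele and the Cre according to the methods, whereas the design text of the series has floxed mice without Cre. Tamoxifen was given 2 weeks before harvest according to the sequencing methods, whereas the paper's treatment section has mice analyzed at day 10. Cells of 5 KO or 10 WT mice were pooled before sorting, so that a library does not show the variation between mice. The sample titles write Gfi1 where the genotype field of the same samples writes Gfi1b, and the genotype field was followed. The ages of the mice are not given in the sources used here. For the cells called HSCs, the labels and the sequencing methods give no gate on CD41 or CD9, whereas the study's text calls the sequenced HSCs positive for both, so that whether the comparison of populations sets CD41-positive or unselected HSCs against CD41low/CD9low HSCs is not settled.

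Klf proteins are transcription factors that bind GC-rich and CACCC-containing DNA through zinc fingers at the end of the protein, and they differ mainly in the partners that the rest of the protein recruits. Klf2, Klf4, Klf6 and Klf7 mostly act as activators. Klf3 and Klf12 repress through the CtBP corepressors, and Klf9, Klf10, Klf11 and Klf13 can recruit the Sin3A corepressor. In blood cells, Klf2 is known for holding lymphocytes quiescent, Klf4 for monocyte differentiation and as a reprogramming factor, and Klf1, which is not among the 10 genes, for erythroid differentiation. Several members, Klf2, Klf4, Klf6 and Klf10 among them, are also known as early-response genes whose transcripts accumulate soon after cells are stimulated.

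The promoters of Klf2, Klf4 and Klf6 are shown because the levels of these genes differed most between the libraries. The sequences are those of RefSeq (build GRCm38.p6), written 5′ to 3′ along the gene, from 250 bases before to 50 bases after the annotated start site. Capitals mark the GC box GGGCGG on either strand and, in Klf2 only, the MEF2 site, to which MEF2 factors bind. Klf2 lies on the forward strand (chr8:72318812-72319111), Klf4 on the reverse strand (chr4:55532426-55532725) and Klf6 on the forward strand (chr13:5861239-5861538).
Klf2: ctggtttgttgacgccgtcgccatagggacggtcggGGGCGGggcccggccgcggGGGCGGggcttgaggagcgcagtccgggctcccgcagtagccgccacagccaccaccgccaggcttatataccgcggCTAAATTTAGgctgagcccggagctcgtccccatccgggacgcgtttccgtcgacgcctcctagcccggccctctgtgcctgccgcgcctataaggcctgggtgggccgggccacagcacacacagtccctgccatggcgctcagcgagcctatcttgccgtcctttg
Klf4: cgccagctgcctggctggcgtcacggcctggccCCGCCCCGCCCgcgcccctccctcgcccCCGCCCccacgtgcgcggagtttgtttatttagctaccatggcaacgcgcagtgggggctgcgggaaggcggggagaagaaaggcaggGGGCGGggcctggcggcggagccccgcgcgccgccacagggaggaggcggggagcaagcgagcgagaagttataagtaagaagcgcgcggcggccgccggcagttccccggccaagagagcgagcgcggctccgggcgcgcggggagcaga
Klf6: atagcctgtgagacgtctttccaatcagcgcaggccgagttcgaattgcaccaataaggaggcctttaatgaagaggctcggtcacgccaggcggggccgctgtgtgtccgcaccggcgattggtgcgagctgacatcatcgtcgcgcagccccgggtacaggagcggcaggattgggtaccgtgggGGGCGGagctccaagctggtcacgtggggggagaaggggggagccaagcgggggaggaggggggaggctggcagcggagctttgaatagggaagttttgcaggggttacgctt

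A promoter sequence was found for 9 of the 10 genes, and Klf10 was not among them. The GC box was present once in the promoter of Klf6, 2 times in that of Klf2 and 4 times in that of Klf4, where 2 of the matches overlap. In all, 7 of the 9 member promoters held it, against 35.7% of 32851 promoters of all genes. The MEF2 site starts at position -118 relative to the start site of Klf2 as ctaaatttag and was found in no other member promoter, while 0.557% of all promoters held it. CACCC, the short form of the Klf recognition sequence, was found on either strand in 6 of the 9 (57.5% of all promoters), with 1 match in Klf2 and 0 in Klf4 and Klf6. The core AATC recognised by Gfi1 proteins was found in 6 of the 9 (73.1% of all promoters), with 3 matches in Klf6 and 0 in Klf2 and Klf4. Neither the CArG box, the binding sequence of serum response factor (1.63% of all promoters), nor the cAMP response element TGACGTCA (1.79%) was found in any of the 9. These matches describe the letters in a window of 300 bases and do not show binding.

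The libraries held 50781007 (WT HSCs), 41690708 (KO HSCs), 12732079 (WT CD41low/CD9low HSCs) and 19123185 (KO CD41low/CD9low HSCs) counts on genes. In that order, 3 counts, taken as the lowest number a library can show, were 0.0591, 0.0720, 0.236 and 0.157 CPM (counts scaled to a common library total on genes). Intervals given below are exact 95% intervals of counting error and hold no variation between mice or preparations. The 10 HSC markers summed to 1978 to 2559 CPM per library. Kit, Mecom and Hlf were the highest, at 185 to 1262 CPM, and Hoxb5 the lowest, at 4.86 to 5.75 CPM. Ly6a was at 16.6 to 51.0 CPM and Slamf1 at 30.9 to 106 CPM. Of the T cell markers, Cd3e had at most 1 count, whereas Lck was at 7.03 to 10.7 CPM and Thy1 at 3.14 to 5.18 CPM. Sums for markers of other cell types are given further below. Itga2b, which encodes CD41, was at 547 and 691 CPM in the WT and KO libraries of HSCs and at 136 and 205 CPM in those of CD41low/CD9low HSCs, and Cd9 at 185 and 185 against 109 and 133 CPM. The count of Gfi1b (ENSMUSG00000026815) was 9256 (WT) and 49910 (KO) in HSCs, against 611 and 9741 in the CD41low/CD9low pair. It was thus higher in both libraries labelled KO, and a count over the whole gene does not separate the floxed exons from the rest, so it does not check the genotype labels. The integrin genes Itga2b and Itgb3, known to be higher in HSCs that lack Gfi1b, were higher in the KO library of both pairs, by 0.36 and 0.59 (Itga2b) and by 1.73 and 1.45 (Itgb3) on the log2 scale.

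In WT HSCs, Klf6 was by far the most abundant of the 10 genes. Its level per kilobase of exon was 114 CPM per kb, or 53.7% of the members' summed level on this scale, and Klf2 came next at 21.4 CPM per kb. The counting intervals of Klf2 and Klf10 (20.1 CPM per kb) overlapped, as did those of Klf13 (12.9) and Klf4 (12.8). Klf7, Klf3 and Klf12 were the lowest, with 2.49, 1.73 and 0.668 CPM per kb.

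The order of the genes differed between the libraries. In KO HSCs Klf6 was still first, at 34.4 CPM per kb, but Klf10 (25.2) and Klf13 (16.6) followed, and Klf2 stood in rank 5 and Klf4 in rank 8. In both CD41low/CD9low libraries Klf10 was first, with 30.9 CPM per kb in WT and 31.1 in KO, and Klf6 was second with 13.8 and 17.1. Klf4 was last there, at 1.06 CPM per kb in WT and 0.566 in KO. Its interval overlapped that of its neighbour in the order in both, Klf12 in WT and Klf2 in KO.

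**Figure D1:**
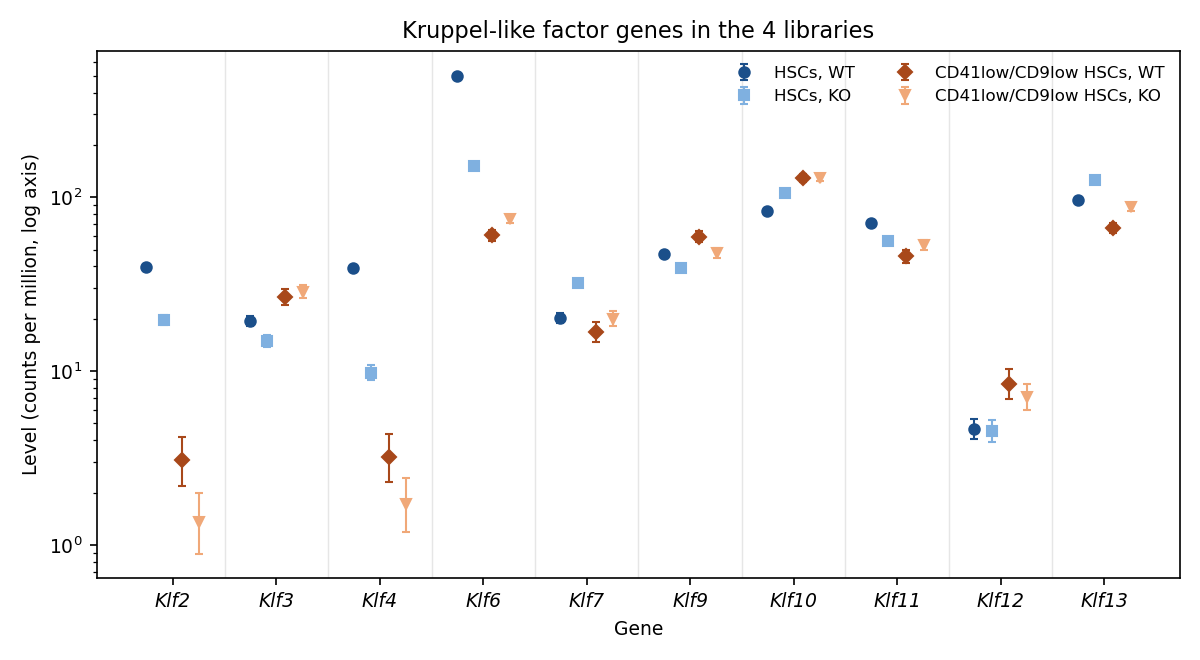
Level of each gene in CPM (log axis) in the 4 libraries, with exact 95% intervals of counting error as bars. Klf2, Klf4 and Klf6 are highest in WT HSCs, lower in KO HSCs and lowest in the CD41low/CD9low libraries, whereas the other members lie within less than 1 unit of log2 of each other across the libraries.

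Klf6 (ENSMUSG00000000078, chr13:5861482-5870394, forward strand), an early-response activator found in most tissues, was counted 25469 times in WT HSCs, 6298 times in KO HSCs, 769 times in WT CD41low/CD9low HSCs and 1432 times in KO CD41low/CD9low HSCs. These counts are 502, 151, 60.4 and 74.9 CPM. WT HSCs were thus well above the other libraries, and the CD41low/CD9low pair was lowest. Klf2 (ENSMUSG00000055148, chr8:72319033-72321656, forward strand) was counted 2011, 823, 39 and 26 times in the same order of libraries, which is 39.6, 19.7, 3.06 and 1.36 CPM. Klf4 (ENSMUSG00000003032, chr4:55527143-55532466, reverse strand) was counted 1988, 409, 41 and 33 times, or 39.1, 9.81, 3.22 and 1.73 CPM. Both genes thus had few counts in the CD41low/CD9low libraries, though more than the 3 counts taken as the lowest, and all 3 genes were highest in WT HSCs. Across the 4 libraries the log2 level spanned 4.43 for Klf2, 4.15 for Klf4 and 3.04 for Klf6 (log2 of CPM plus 0.5), while it spanned 0.59 to 0.91 for the other 7 members. Treating Klf2, Klf4 and Klf6 as a group was decided after their values were seen.

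Loss of Gfi1b, a repressor expressed in HSCs, was compared with the control within each population. In HSCs, Klf2, Klf4 and Klf6 had a KO/WT ratio of normalized counts below 0.6 and Klf7 had one above 1.5. Hence 3 of 10 members were below the lower cutoff, against 10.3% of the 15910 genes kept, and 1 of 10 was above the upper cutoff, against 14.1%. The genes had been chosen with these ratios known, so nothing is read from the difference to those shares. The median log2 KO/WT of the members was -0.29, and that of all genes was 0.00.

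Among the activators, Klf4 had the lowest ratio in HSCs. Its normalized count was 1789 in the WT library and 454.4 in the KO library, a ratio of 0.254 (95% interval 0.228 to 0.283). Of all genes kept, 2.80% had a lower ratio than Klf4. Klf6 went from 22925 to 6997 normalized counts, a ratio of 0.305 (0.297 to 0.314), and 3.48% of all genes were lower. Klf2 had 1810 and 914.3 normalized counts and a ratio of 0.505 (0.465 to 0.548), with 7.45% of all genes lower. Klf7, known for its role in neurons and also expressed in blood progenitors, went the other way. Its counts were 1027 in WT and 1343 in KO HSCs, and its ratio was 1.61 (1.49 to 1.75). After a correction for exon length its log2 ratio was 0.56 in place of 0.69, which is under the cutoff.

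Among the repressors that use CtBP, the normalized count of Klf3 was 887.5 in WT HSCs against 693.2 in KO HSCs, a ratio of 0.781 (0.705 to 0.864). Klf12, with 213.3 and 210.0, had a ratio of 0.984 (0.809 to 1.20), whose interval includes 1. Among those that can recruit Sin3A, Klf9, a gene induced by glucocorticoids, had a ratio of 0.844 (0.792 to 0.899) and Klf11 one of 0.794 (0.753 to 0.836). Klf10, first described as induced by TGF-beta, had a ratio of 1.28 (1.22 to 1.33), and Klf13 one of 1.31 (1.26 to 1.36). None of these 6 ratios passed either cutoff.

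In CD41low/CD9low HSCs, 2 of 10 members, Klf2 and Klf4, were below 0.6, against 12.0% of the 14844 genes kept, and 0 of 10 were above 1.5, against 13.5%. The median log2 KO/WT of the members was 0.06. The normalized count of Klf2 was 47.77 in the WT library against 21.23 in the KO library, a ratio of 0.444 (0.260 to 0.749). For Klf4 these were 50.21 and 26.94, a ratio of 0.537 (0.329 to 0.870). Both rest on fewer than 50 counts per library, and both intervals reach above the cutoff of 0.6. Klf6, with 941.8 and 1169 normalized counts, had a ratio of 1.24 (1.14 to 1.36), so that the KO library was the higher one.

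The other members differed little between the genotypes in CD41low/CD9low HSCs. Klf13 had the highest ratio, 1.32 (1.21 to 1.43), close to its 1.31 in HSCs. Klf7 followed with 1.19 (1.01 to 1.41) and Klf11 with 1.16 (1.05 to 1.29). Klf9 was lower in KO in this population too, with a ratio of 0.805 (0.730 to 0.888). The intervals of Klf3 (1.07, 0.937 to 1.23), Klf10 (1.01, 0.948 to 1.07) and Klf12 (0.840, 0.647 to 1.09) include 1.

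**Figure D2:**
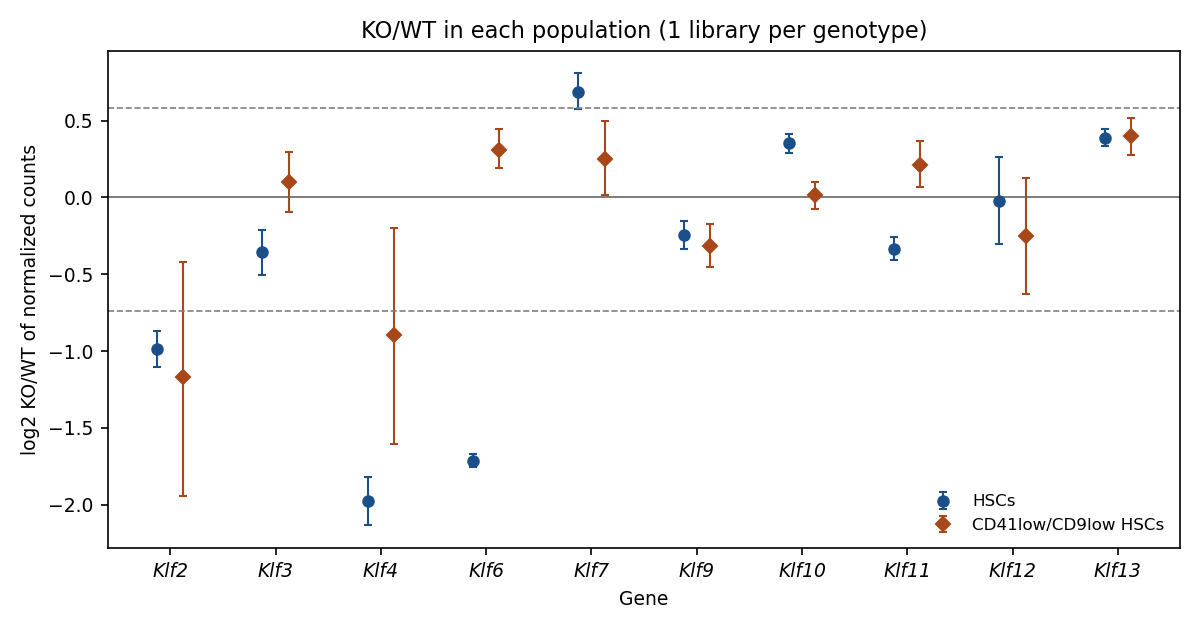
log2 KO/WT of normalized counts for each gene in HSCs (circles) and in CD41low/CD9low HSCs (diamonds), with exact 95% intervals of counting error, and the cutoffs of 1.5 and 0.6 as dashed lines. Klf2 lies below the lower line in both populations with close values, Klf4 lies lower in HSCs, and Klf6 is at -1.71 in HSCs and at 0.31 in CD41low/CD9low HSCs.

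The genotype ratios of the populations were set against each other gene by gene by subtracting the log2 ratio of HSCs from that of CD41low/CD9low HSCs. Klf6 had the largest difference, 2.02 (1.89 to 2.16), and Klf4 followed with 1.08 (0.40 to 1.76). For Klf2 the difference was -0.18 (-0.91 to 0.54), an interval wide enough to hold a difference of either sign. Klf11 (0.55, 0.38 to 0.71), Klf3 (0.46, 0.22 to 0.70), Klf7 (-0.44, -0.71 to -0.17) and Klf10 (-0.34, -0.45 to -0.23) had smaller differences whose intervals leave out 0. Those of Klf9 (-0.07), Klf12 (-0.23) and Klf13 (0.01) include 0. With 1 library in each group none of these differences has a replicate check.

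Between the populations, the same 3 genes stood apart. In WT, normalized counts were 13.5 times higher in HSCs than in CD41low/CD9low HSCs for Klf2 (9.86 to 19.1), 12.7 times for Klf4 (9.34 to 17.8) and 8.69 times for Klf6 (8.08 to 9.34). In KO the figures were 15.2 (10.3 to 23.4) for Klf2, 5.94 (4.16 to 8.74) for Klf4 and 2.11 (1.99 to 2.23) for Klf6. The gap for Klf4 and Klf6 was thus narrower in KO than in WT, and for Klf2 it was not.

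Taken over all members, 3 of 10 in WT (Klf2, Klf4 and Klf6) had a ratio of CD41low/CD9low HSCs over HSCs below 0.6, against 19.7% of 15636 genes, and 1 of 10 (Klf12, 1.74, 1.37 to 2.19) was above 1.5, against 19.2%. In KO, 4 of 10 were below 0.6, against 20.4% of 15419 genes, since Klf7 joined them at 0.597 (0.531 to 0.669). Klf3 (1.83, 1.63 to 2.06) and Klf12 (log2 ratio 0.59, on the cutoff) were above 1.5 in KO, 2 of 10 against 19.2%. The lowest-lying members outside the group of 3, Klf11 and Klf13, had ratios of 0.612 and 0.656 in WT, just over the cutoff. The HSC libraries list 38293 genes and the CD41low/CD9low libraries 41214, and the annotation release behind each is not given. The populations come from separate libraries, so that population and library cannot be told apart. In pooled sorted cells, fewer cells that express a gene and less RNA of it per cell cannot be told apart either.

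**Figure D3:**
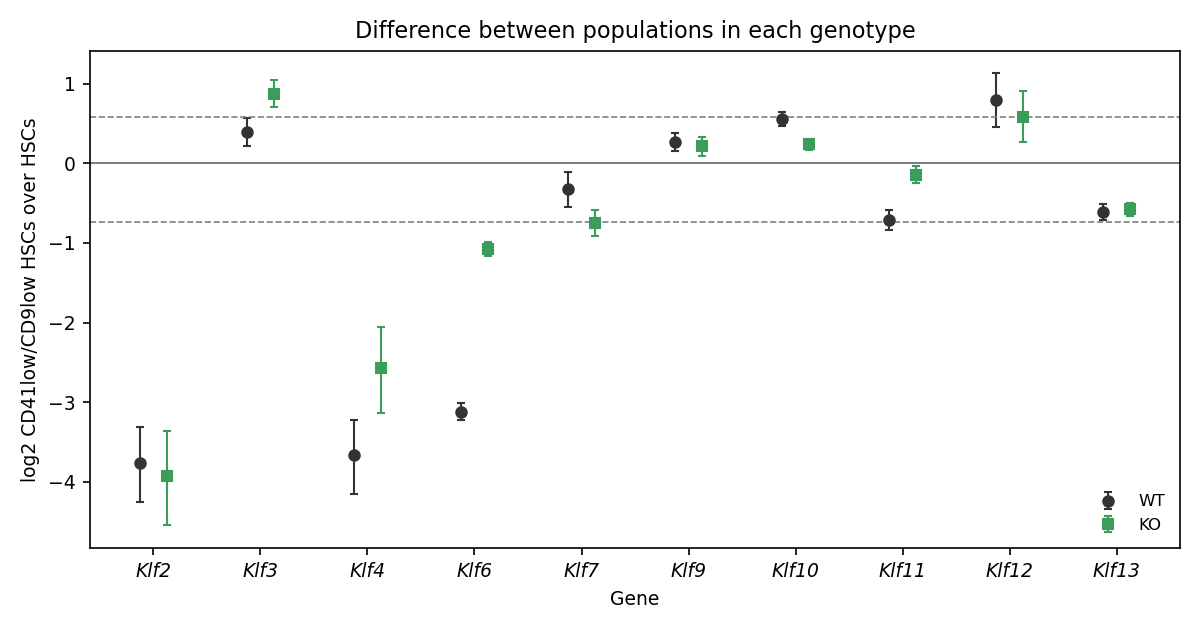
log2 of normalized counts in CD41low/CD9low HSCs over HSCs for each gene, in WT (circles) and KO (squares), with exact 95% intervals of counting error, and the cutoffs of 1.5 and 0.6 as dashed lines. Klf2, Klf4 and Klf6 lie at -3.76, -3.67 and -3.12 in WT, and Klf4 and Klf6 lie closer to 0 in KO.

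The summed level of the 10 genes was 924 CPM in WT HSCs, 558 CPM in KO HSCs, 419 CPM in WT CD41low/CD9low HSCs and 452 CPM in KO CD41low/CD9low HSCs. Klf2, Klf4 and Klf6 made up 580, 181, 66.7 and 78.0 CPM of these sums, or 62.8%, 32.3%, 15.9% and 17.2%. The remaining 7 members summed to 344, 378, 353 and 374 CPM, a much narrower range.

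**Figure D4:**
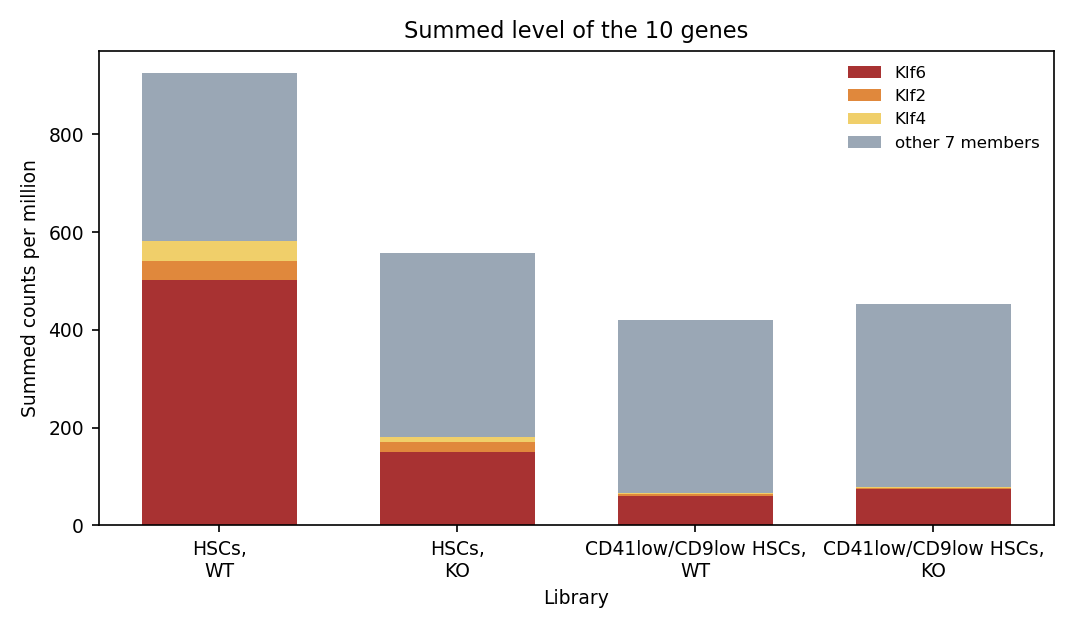
Summed CPM of the 10 genes in each library, split into Klf6, Klf2, Klf4 and the other 7 members. The part of the 7 members is between 344 and 378 CPM in every library, and the rest is 580 CPM in WT HSCs and 66.7 to 181 CPM in the others.

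Of the 8 other Klf genes searched, 7 were matched by name. Klf14 and Klf17 had 0 counts in all libraries, which allows up to 0.0591 CPM in WT HSCs and 0.236 CPM in WT CD41low/CD9low HSCs, and Klf15 had at most 11 counts. Klf1, the erythroid factor, had 598 and 276 counts in the HSC pair and 55 and 36 in the CD41low/CD9low pair. Its ratios were 0.570 (0.492 to 0.658) and 0.436 (0.278 to 0.676), below 0.6 in both populations. Klf8, which uses CtBP like Klf3, was higher in KO HSCs by 0.58 on the log2 scale, just under the cutoff, and by 0.25 in the CD41low/CD9low pair, and Klf16 had 0.865 (0.805 to 0.930) and 1.29 (1.13 to 1.47). Klf5, with 14, 32, 0 and 16 counts in the 4 libraries, had a ratio of 2.82 (1.46 to 5.72) in HSCs.

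The Sp genes, the nearest relatives of the Klf family, bind the same GC boxes. Of 9 genes, 6 were kept in HSCs with a median log2 KO/WT of 0.29, and 5 in CD41low/CD9low HSCs with a median of 0.17. Sp1 was the most abundant at 353, 428, 210 and 236 CPM, and its ratios were 1.23 (1.20 to 1.25) and 1.12 (1.07 to 1.18). Sp2 and Sp4 had HSC ratios of 1.15 (0.988 to 1.33) and 1.22 (1.16 to 1.28). Of the 6 genes kept in HSCs only Sp6 and Sp7 were above 1.5, against 14.1% of all genes. They were named after their values were seen and had at most 42 counts.

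The kinase ERK5 (Mapk7) and the MEF2 factors it activates are known to switch on Klf2 and Klf4. Of 7 genes of this pathway kept, 2 were above 1.5 and 0 below 0.6 in HSCs, against 14.1% and 10.3% of all genes. The same numbers were found in CD41low/CD9low HSCs, against 13.5% and 12.0%. Mef2a was above the cutoff in both, with ratios of 1.69 (1.62 to 1.76) and 1.58 (1.42 to 1.75). Mef2c, at 392 CPM in WT and 623 CPM in KO HSCs, had ratios of 1.61 (1.58 to 1.64) and 1.01 (0.962 to 1.07). Map3k3, a kinase upstream of ERK5, had 1.34 (1.28 to 1.41) and 1.09 (1.02 to 1.17). In HSCs, 6 of the 7 genes had a ratio over 1, and the median log2 ratio of the 7 was 0.39. RNA levels do not measure the activity of ERK5, and the part of this pathway in the Klf values was not tested. Mapk7, named after its values were seen, was the other gene above 1.5 in CD41low/CD9low HSCs, with 109 counts in WT and 444 in KO and a ratio of 2.72 (2.20 to 3.38). In HSCs it had 1138 and 861 counts and was the 1 gene of the 7 with a ratio under 1, at 0.934 (0.854 to 1.02).

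Among 12 genes of cofactors and regulators of Klf proteins, 2 were above 1.5 and 0 below 0.6 in HSCs, against 14.1% and 10.3% of all genes. In CD41low/CD9low HSCs 0 passed either cutoff, against 13.5% above and 12.0% below. The acetyltransferases Ep300 and Crebbp were those above, with log2 ratios of 0.66 and 0.63 in HSCs, close to the cutoff. Kat2b had 1.29 (1.24 to 1.35). The median log2 ratio of the list was 0.05 in the HSC pair and 0.09 in the other.

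Of 10 genes known as targets of single Klf proteins, 2 were above 1.5 and 2 below 0.6 in HSCs, against 14.1% and 10.3% of all genes. Of 9 kept in CD41low/CD9low HSCs, 1 was above and 4 below, against 13.5% and 12.0%. A ratio under 1 was found for 5 of the 10 in HSCs and for 5 of the 9 in CD41low/CD9low HSCs. S1pr1, a target of Klf2 in T cells named after its values were seen, had ratios of 1.27 (1.18 to 1.35) and 1.66 (1.44 to 1.91). Thbd, induced by Klf2 in endothelium, had ratios of 1.75 (1.65 to 1.86) and 1.11 (0.837 to 1.49). Lgals3, a gene repressed by Klf3, had 1.35 (1.02 to 1.79) and 0.536 (0.354 to 0.808) from at most 108 counts. Cdkn1a, Nos3 and Cd14 were also named after their values were seen. Cdkn1a had ratios of 0.602 (0.468 to 0.770) and 0.121 (0.0415 to 0.293), the latter from 33 and 6 counts. Nos3 had 3.31 (2.12 to 5.30) and 0.429 (0.164 to 1.06) from at most 75 counts. Cd14 had 0.183 (0.0878 to 0.348) in HSCs from 74 and 11 counts. It was at 1.10 CPM in each CD41low/CD9low library.

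In HSCs, early-response genes were lower in KO, as were Klf2, Klf4 and Klf6, whereas Klf10 was higher (1.28). All 12 genes of this list were below 0.6 in HSCs, against 10.3% of all genes, with a median log2 KO/WT of -1.81. The list was chosen with earlier results of these data known, so nothing is read from the difference to that share. In CD41low/CD9low HSCs 2 of the 10 kept were below 0.6, against 12.0% of all genes, and the median was -0.33. Of these 10 genes, 8 had a ratio under 1, while Jun had 1.24 (1.16 to 1.32) and Egr1 1.24 (0.986 to 1.56). Klf6 was also higher in KO in this population (1.24). The summed level of the 12 genes was 4765 CPM in WT HSCs, 1648 CPM in KO HSCs, 496 CPM in WT CD41low/CD9low HSCs and 443 CPM in KO CD41low/CD9low HSCs. Fos was at 1323, 313, 21.4 and 17.2 CPM in the same order, Junb at 295, 77.2, 73.0 and 55.1 CPM, and Nr4a1 at 177, 32.1, 8.40 and 2.98 CPM. What part the handling of the cells before lysis had in the levels of these genes or of the Klf genes was not tested.

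**Figure D5:**
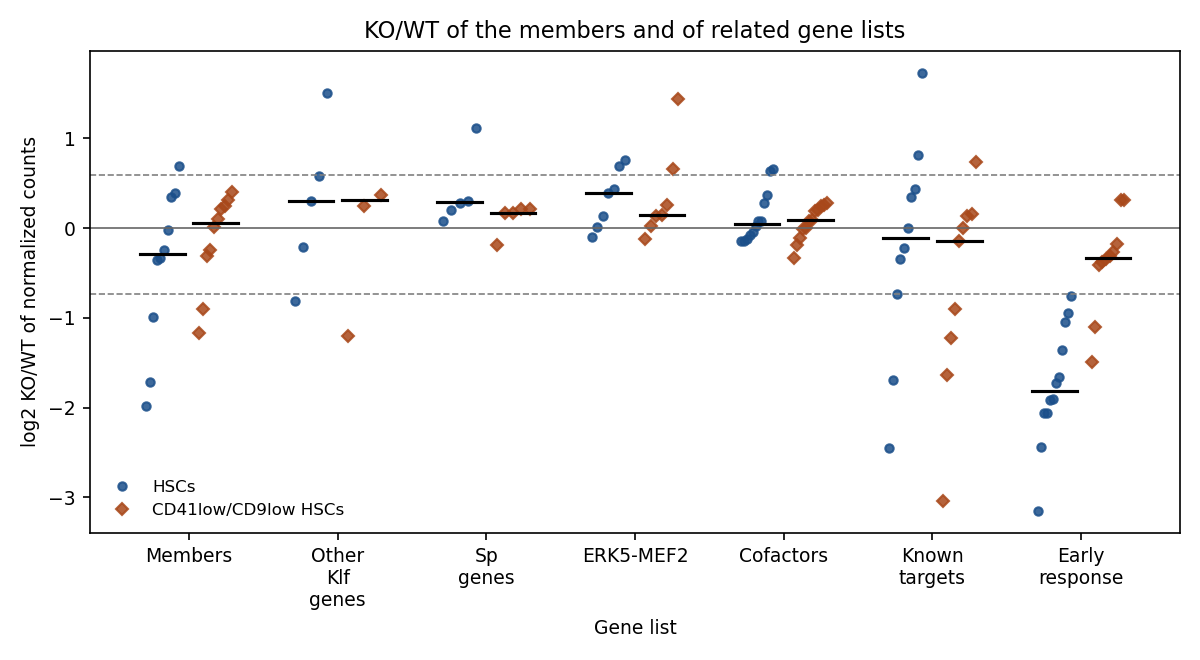
log2 KO/WT of each gene of the members and of 6 related lists, in HSCs (circles) and CD41low/CD9low HSCs (diamonds), with the list median as a black line and the cutoffs of 1.5 and 0.6 as dashed lines. Genes with 0 counts in 1 library of a pair enter the median but are not drawn, and the early-response list has its HSC median at -1.81.

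The genes nearest in pattern to the members of widest range were looked for among 10496 protein-coding genes with a mean of at least 5 CPM, by the distance between centred log2 levels over the 4 libraries. Btg2, an antiproliferative early-response gene, was nearest to Klf2, at a distance of 0.22, with 186, 108, 16.4 and 7.63 CPM. It was followed by Pf4 (0.84), a platelet chemokine, and Zfp36 (0.90), which destabilises mRNA. Nearest to Klf4 were Zfp36 (0.32), the AP-1 subunit Fosb (0.41) and the tubulin gene Tuba8 (0.95). Nearest to Klf6 were Tmod1 (0.27), which caps actin filaments, Plk3 (0.55) and Ppp1r15a (0.62), with 16.8, 5.88, 1.57 and 2.56 CPM for Tmod1. Within a distance of 0.5 lay 1 gene for Klf2, 2 for Klf4 and 1 for Klf6, which is a description over 4 libraries.

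Because Klf2 and Klf4 are abundant in endothelium and Klf4 in monocytes, genes of other cell types are given beside these values. Cdh5, the defining cadherin of endothelium, had 16 and 11 counts in WT and KO HSCs and 0 in both CD41low/CD9low libraries, while all 7 endothelial markers, of which HSCs also express Pecam1 and Tek, summed to 290 to 337 CPM. Other markers of this list were higher than Cdh5. Kdr was at 16.6 and 26.3 CPM in WT and KO HSCs and at 4.71 and 6.48 CPM in the CD41low/CD9low pair. Emcn was at 17.8 to 24.4 CPM and Egfl7 at 44.4 to 146 CPM. Stab2 had 18 and 25 counts in the HSC pair and 0 and 15 in the other. All 7 monocyte markers summed to 53.5 and 73.5 CPM in WT and KO HSCs and to 58.4 and 35.3 CPM in the CD41low/CD9low pair. In HSCs, 3 of the 7 had a KO/WT above 1.5 and 1 below 0.6, against 14.1% and 10.3% of all genes. Of the 5 kept in CD41low/CD9low HSCs, 4 were below 0.6, against 12.0% of all genes. The fifth, Ms4a6c, had a ratio of 1.14 (0.978 to 1.32), at 22.0 CPM in WT and 24.9 CPM in KO. The 8 megakaryocyte markers summed to 1679 and 2392 CPM in the HSC pair and to 531 and 635 CPM in the other pair, and the 8 erythroid markers to 79.7, 42.2, 43.3 and 17.9 CPM in the order used above. The 8 neutrophil markers summed to 404, 492, 1080 and 277 CPM. All 8 had a KO/WT below 0.6 in CD41low/CD9low HSCs, against 12.0% of all genes. B cell markers were at 18.4 to 31.3 CPM and T cell markers at 11.1 to 23.3 CPM. The part of such cells in the Klf values was not tested.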

How the data were processed

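The 4 libraries were made from pooled, sorted HSCs with a stranded mRNA kit. Per the submitters' processing notes and the methods, the authors used TopHat2 2.0.10 to align reads to mm10, SAMtools to handle the alignments and HTSeq to obtain the raw counts per Ensembl gene that they deposited. HTSeq's version, strand setting and annotation release are not given in the sources used here, so reads of Klf3, Klf7, Klf12 and Klf13 and of their antisense genes may not be separated. The antisense genes had at most 28 counts. Closing lines that name no gene were left out. Reads assigned to no feature were 80.0, 105, 62.0 and 60.1 per 100 gene counts.

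Normalized counts are counts over size factors (median of ratios) of each pair or, between populations, of all 4 libraries, and genes with at least 10 counts in 1 library were kept. Ratios above 1.5 or below 0.6 were counted. Intervals are exact (Clopper-Pearson for ratios, Poisson for levels), and those of differences between log2 ratios use the normal approximation. No test was run, since each group has 1 library and the genes were chosen from these ratios. The members and lists were chosen with earlier results of these data known. Named genes are all members, and of each list those past the same cutoff in both populations or among the 3 largest HSC ratios with at least 50 counts in each pair, and for each list only some are described. Of the target list, 1 gene is not reported here. Alternatives were TMM (edgeR 4.0.16), total counts, 4-library size factors, other filters, a pseudocount of 1, a cutoff of 1/1.5 and a running median over 500 genes of similar exon length. Ratios were tested on simulated data. Positions and exon lengths are from GENCODE M21 (GRCm38). Python 3.11.15 and R 4.3.3 were used.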

Additional observations from a re-analysis of the deposited data

Results flagged for a closer look

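Klf6 and Klf11 were lower in KO than in WT HSCs but higher in KO than in WT CD41low/CD9low HSCs, with intervals of counting error that leave out 1 in each population. Subtracting the log2 KO/WT of HSCs from that of CD41low/CD9low HSCs gave 2.02 for Klf6 and 0.55 for Klf11. Each direction comes from 1 library per genotype, and the difference between the populations was not tested.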

How the results depend on the processing

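No paired analysis was possible because each group has 1 library, and for the same reason no library could be left out. With the correction for exon length, 0 members in place of 1 were above 1.5 in HSCs, as Klf7 was then under the cutoff. With at least 50 counts required, 0 members in place of 2 were below 0.6 in CD41low/CD9low HSCs, because Klf2 and Klf4 were no longer kept there. Between populations, where the alternatives for the counts were chosen after seeing the data, members above 1.5 were 2 in place of 1 in WT with total counts and 1 in place of 2 in KO with TMM. Members below were 5 in place of 3 in WT with the cutoff of 1/1.5 and, in KO, 3 in place of 4 with total counts or the exon length correction. The other counts run stayed within 1.5 times the main count. Over all alternatives, the members' median log2 KO/WT lay between -0.31 and -0.27 (HSCs) or 0.04 and 0.16 (CD41low/CD9low HSCs), and their median log2 of CD41low/CD9low HSCs over HSCs between -0.48 and -0.34 (WT) or -0.40 and -0.28 (KO). Of 138 values of single members under the alternatives, 135 stayed within their counting interval, 3 left it (Klf3, Klf7 and Klf13 in HSCs with the exon length correction) and 1 changed sign (Klf10 in CD41low/CD9low HSCs, from 0.01 to -0.00 with that correction). Depth limits Klf2 and Klf4 in CD41low/CD9low HSCs, where each has 26 to 41 counts. The alternatives are given for the members only. Genes of the other lists near the cutoff of 1.5 in HSCs, such as Mef2c, Ep300 and Crebbp, therefore have no such check, also not for exon length.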
